A study of Mus musculus with 6 samples.

Results

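The genes described here are the inhibitors of the G1 cyclin-dependent kinases (Cdkn1a, Cdkn1b, Cdkn1c, Cdkn2c and Cdkn2d), the D cyclins (Ccnd1, Ccnd2 and Ccnd3) and the kinases that the D cyclins bind (Cdk4 and Cdk6). They were chosen by name, and a gene counted as measured where the platform annotation names it as the only gene of a probe set. Of the 10, 9 had 1 such probe set each, out of 30743 genes with a probe set of their own, and all 9 lay above the dim level (a mean log2 value of 1.92, the median of all probe sets) and were among the 19088 genes tested. The probe set that covers Ccnd1 is also annotated to Mir3962, so Ccnd1 was not counted as measured.

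Expression was measured on Affymetrix arrays in Lineage- c-Kit+ Sca1+ cells (LSKs), the bone marrow fraction that holds blood stem cells and multipotent progenitors, with 3 samples per group and 1 array per sample. All mice carried floxed alleles of the microRNA gene miR-21 (miR-21flox/flox) and all received pIpC, a synthetic double-stranded RNA that induces interferon, at 250 µg per injection for 7 injections from an age of 4 to 6 weeks, with cells taken 4 weeks later. The knockout mice also carried Mx1-Cre, a recombinase gene under an interferon-responsive promoter that is active in many cell types besides blood cells, and the control mice were littermates without it. Effects of Cre and of the loss of miR-21 therefore cannot be told apart. The annotation gives the microRNA's probe set to its host gene Vmp1 as well, so the arrays hold no direct check of the deletion. The labels call the samples biological replicates and do not say whether 1 sample is 1 mouse, so the p-values speak for the spread among these 6 samples and no further. The main strand of the deleted microRNA, shown because its absence defines the knockout, is given with its seed (bases 2 to 8) in capitals, from RefSeq GRCm38.p6 at chr11:86584120-86584141 on the minus strand.
mmu-miR-21a-5p: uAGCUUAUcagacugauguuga

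D cyclins bind Cdk4 or Cdk6 and start the phosphorylation of the Rb protein, which releases E2F factors and lets a cell pass from G1 into S phase. The INK4 inhibitors, p18 (Cdkn2c) and p19 (Cdkn2d) among them, bind Cdk4 and Cdk6 alone, whereas the CIP/KIP inhibitors p21 (Cdkn1a), p27 (Cdkn1b) and p57 (Cdkn1c) bind cyclin-kinase complexes more broadly. In blood stem cells these inhibitors are known for holding cells out of the cycle, and p57 is the one best known for stem cell quiescence. Several of these proteins are controlled by degradation and by where they sit in the cell, which transcript levels do not show.

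In the knockout, Cdkn1a and Ccnd2 fell, Cdk4 and Cdkn2d rose slightly, and Cdkn1b, Cdkn1c, Cdkn2c, Ccnd3 and Cdk6 did not pass the test. Thus 4 of 9 passed limma's test at an adjusted p under 0.05, 2 in each direction, where 31.1% of all genes tested passed, 12.0% lower and 19.1% higher. Knockout and control values were fully separate for 5 of the 9, against 48.0% of all genes. Both counts are too small to read as a property of the family. The median change was 0.01 on the log2 scale for the 9 and 0.07 for all genes tested, and the median size of change was 0.17 and 0.14. Cdkn1a alone passed with a fold of at least 1.5, which 4.11% of all genes did. Every change below is a difference of log2 means, knockout minus control, with limma's standard error (SE) or 95% interval, and adjusted p-values are limma's after Benjamini-Hochberg adjustment over all genes tested.

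**Figure D1:**
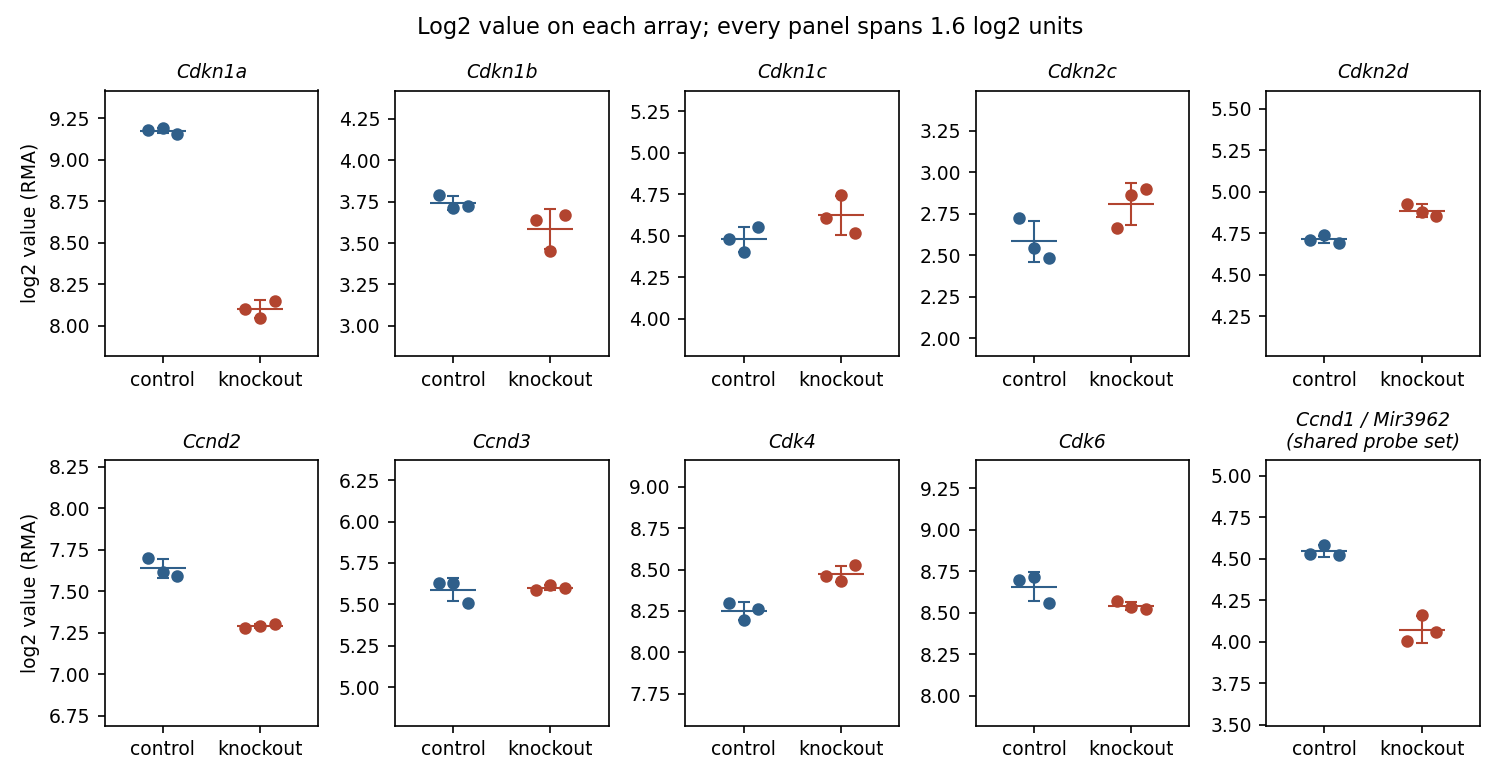
Log2 value (RMA, y axis) of each gene on each of the 3 control (blue) and 3 knockout (red) arrays, with horizontal lines for group means and bars for the SD. Every panel spans 1.6 log2 units, so distances can be compared between panels but levels cannot. Cdkn1a shows the widest gap, from 9.18 to 8.10, and the last panel is the probe set that Ccnd1 shares with Mir3962.

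Cdkn1a encodes p21, a CIP/KIP inhibitor that p53, FOXO and other stress-responsive factors can induce. Its log2 values were 9.18, 9.19 and 9.16 in control replicates 1 to 3 and 8.10, 8.05 and 8.15 in knockout replicates 1 to 3. The groups lay far apart, the highest knockout value being 8.15 and the lowest control value 9.16. The mean fell from 9.18 ± 0.02 to 8.10 ± 0.05 (SD, n = 3 each), a change of -1.08 ± 0.06 (SE, 2.11-fold lower, adjusted p = 4.79e-06). It was the 108th lowest change of all 19088 genes tested. Over the 14 alternative settings its change stayed between -1.16 and -1.05.

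Cdkn1b encodes p27, which the ubiquitin ligase SCF-Skp2 marks for degradation. It was at 3.79, 3.71 and 3.72 in control and at 3.64, 3.45 and 3.67 in the knockout. Every knockout value was below every control value, but the spread within the knockout was wide, and the change of -0.16 did not pass (95% interval -0.32 to 0.01, adjusted p = 0.129). Cdkn1c, which encodes p57, was at 4.48, 4.40 and 4.56 in control and at 4.61, 4.75 and 4.51 in the knockout. Its groups overlapped, and the change of 0.14 did not pass (95% interval -0.03 to 0.31, adjusted p = 0.179). Neither interval reaches a fall of the size seen for Cdkn1a. Both genes were much dimmer than Cdkn1a, and the stricter dim filter (a mean of at least 3.70) left Cdkn1b out.

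The difference between Cdkn1a and its relatives was tested directly, by taking the difference of their log2 values on each array. Cdkn1a minus Cdkn1b went from 5.44 ± 0.04 in control to 4.52 ± 0.07 in the knockout (SD, n = 3 each), a shift of -0.92. Cdkn1a minus Cdkn1c went from 4.70 ± 0.09 to 3.48 ± 0.17, a shift of -1.22. In both the groups did not overlap, and the exact two-sided permutation p was 0.1, the smallest that 3 arrays against 3 allow (0.125 adjusted over the 5 pairs tested).

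Of the INK4 genes, Cdkn2d (p19) had values of 4.71, 4.74 and 4.69 in control and 4.93, 4.88 and 4.85 in the knockout. The groups did not overlap, and the change was 0.17 ± 0.06 (SE, adjusted p = 0.0426), close to the threshold. The call was lost when any 1 of the 6 arrays was left out (change 0.15 to 0.19, adjusted p 0.0761 to 0.147), without the filter on dim genes (0.0520) and with each array centred on its median (0.0683). Cdkn2c (p18) was at 2.73, 2.55 and 2.49 in control and at 2.66, 2.86 and 2.90 in the knockout, not far above the dim level of 1.92. Knockout replicate 1 lay below control replicate 1, and the change of 0.22 did not pass (95% interval 0.03 to 0.42, adjusted p = 0.0775). It passed without knockout replicate 1 (0.30, adjusted p = 0.0402) or without control replicate 1 (0.29, adjusted p = 0.0377). The difference Cdkn2c minus Cdkn2d was -2.13 ± 0.13 in control and -2.08 ± 0.17 in the knockout (SD, n = 3 each), with overlapping groups and an exact two-sided permutation p of 0.9. The other INK4 genes, Cdkn2a and Cdkn2b, which share a locus, did not pass (changes 0.17 and 0.26, adjusted p = 0.0992 and 0.0647), though Cdkn2b passed under 5 of 13 alternatives.

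Ccnd2 encodes cyclin D2. Its values were 7.70, 7.62 and 7.59 in control and 7.28, 7.29 and 7.30 in the knockout. All knockout values lay below all control values, within a narrow band. The mean fell from 7.64 ± 0.05 to 7.29 ± 0.01 (SD, n = 3 each), a change of -0.35 ± 0.06 (SE, 1.27-fold lower, adjusted p = 0.00234). The call held under all 14 alternatives, with changes of -0.40 to -0.32.

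Ccnd3 (cyclin D3) was at 5.63, 5.63 and 5.51 in control and at 5.59, 5.62 and 5.597 in the knockout. The groups overlapped fully and the change was 0.01 (95% interval -0.12 to 0.15, adjusted p = 0.901). A fall of the size of that in Ccnd2 lies outside this interval. The sign of the change turned when arrays were centred (-0.00264) or control replicate 3 was left out (-0.0289). On each array, Ccnd2 minus Ccnd3 was 1.99 to 2.08 in control and 1.67 to 1.70 in the knockout, a shift of -0.36 (exact two-sided permutation p = 0.1, 0.125 adjusted over the 5 pairs).

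For cyclin D1, the values are those of the probe set annotated to both Ccnd1 and Mir3962. The RefSeq table places Ccnd1 on chromosome 7 and Mir3962 on chromosome 1. The number in the probe set's identifier is 7, and such numbers matched the RefSeq chromosome for 99.7% of the 22176 autosomal probe sets with 1 gene that could be compared. The probe set was at 4.53, 4.59 and 4.52 in control and at 4.00, 4.16 and 4.06 in the knockout. All 3 knockout values were lower, with a change of -0.47 ± 0.07 (SE, adjusted p = 0.00233) in a limma fit of the 32985 probe sets above the dim level, of which 24.9% passed. Because the annotation gives 2 genes, this value was left out of the counts, and the comparisons of Ccnd1 with Ccnd2 and Ccnd3 were not run.

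Cdk4, the first of the D cyclin kinases, was at 8.30, 8.19 and 8.26 in control and at 8.46, 8.43 and 8.52 in the knockout. The groups did not overlap, and the mean rose from 8.25 ± 0.05 to 8.47 ± 0.05 (SD, n = 3 each), by 0.22 ± 0.06 (SE, 1.17-fold, adjusted p = 0.0218). This call was lost without knockout replicate 1 (0.23, adjusted p = 0.0601), knockout replicate 3 (0.20, 0.0825) or control replicate 2 (0.19, 0.0742). It was also lost after a second quantile normalization, where the change was 0.11 (adjusted p = 0.129).

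Cdk6, its relative, was at 8.70, 8.71 and 8.56 in control and at 8.57, 8.53 and 8.53 in the knockout. Control replicate 3 lay within the knockout range, and the change of -0.12 did not pass (95% interval -0.26 to 0.03, adjusted p = 0.193). After a second quantile normalization it was -0.23 with an adjusted p of 0.0360. Cdk4 minus Cdk6 was -0.41 ± 0.11 in control and -0.07 ± 0.06 in the knockout, a shift of 0.34 with no overlap between groups (exact two-sided permutation p = 0.1, 0.125 adjusted over the 5 pairs).

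**Figure D2:**
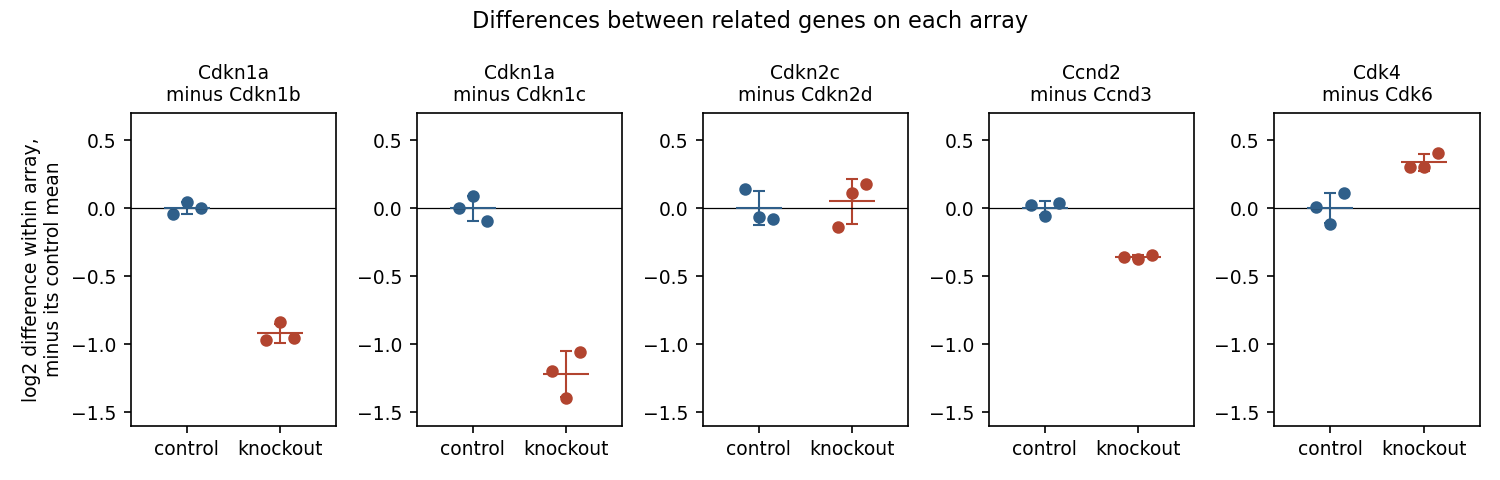
Difference of the log2 values of related genes on each array, less the mean of that difference in control (y axis), for 3 control (blue) and 3 knockout (red) arrays, with means and SD bars. The knockout arrays lie below the control arrays for Cdkn1a against Cdkn1b (shift -0.92) and Cdkn1c (-1.22) and for Ccnd2 against Ccnd3 (-0.36), above them for Cdk4 against Cdk6 (0.34), and among them for Cdkn2c against Cdkn2d.

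**Figure D3:**
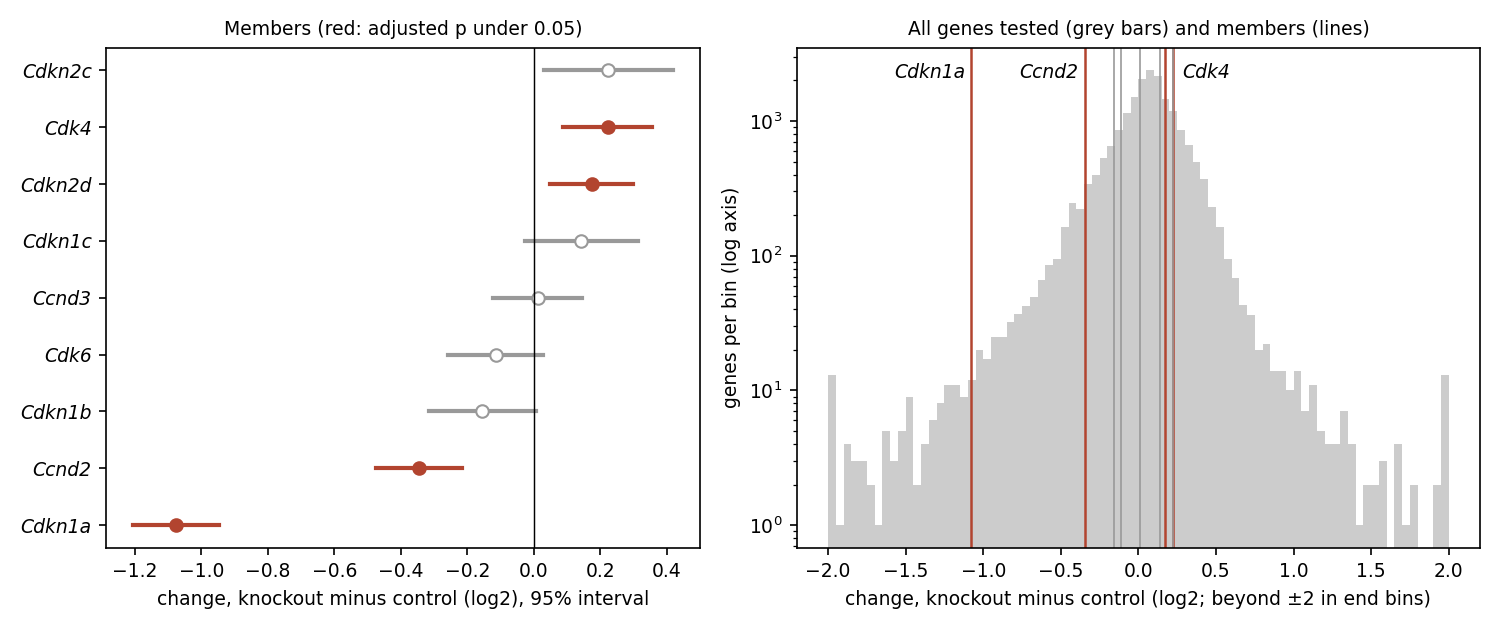
Left, change of each of the 9 genes (knockout minus control, log2) with its 95% interval from limma, red where the adjusted p was under 0.05. Right, the changes of all 19088 genes tested as bars (number of genes on a log axis) with the 9 genes as lines. Cdkn1a at -1.08 lies in the lower tail, Ccnd2 at -0.35 on the lower side (percentile 6.57 of all changes) and the other genes within the bulk.

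Sequence before the start sites was looked at for motifs of factors that act on cell cycle genes. The RefSeq promoter table (GRCm38.p6) held 10 windows for 7 of the 10 genes, and 250 bases before each start were searched on both strands for 8 motifs. These were the GC box GGGCGG, the TATA box TATAAA, the CCAAT box CCAAT, the E-box CACGTG of Myc and Max, the E2F motif TTNGCGC, the AP-1 motif TGANTCA, the forkhead motif TGTTTAC and the CREB motif TGACGTCA. Shown are the windows of the gene with the clearest fall, Cdkn1a, which has 2 start sites in the table, and of Cdk4, with motif matches in capitals, at chr17:29090729-29090978 (plus strand), chr17:29093519-29093768 (plus strand) and chr10:127063285-127063534 (plus strand).
Cdkn1a, upstream start: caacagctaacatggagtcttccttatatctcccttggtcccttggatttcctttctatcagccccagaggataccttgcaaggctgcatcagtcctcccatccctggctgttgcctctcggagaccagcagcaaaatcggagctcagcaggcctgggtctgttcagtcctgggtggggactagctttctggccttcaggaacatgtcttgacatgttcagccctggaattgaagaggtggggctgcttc
Cdkn1a, downstream start: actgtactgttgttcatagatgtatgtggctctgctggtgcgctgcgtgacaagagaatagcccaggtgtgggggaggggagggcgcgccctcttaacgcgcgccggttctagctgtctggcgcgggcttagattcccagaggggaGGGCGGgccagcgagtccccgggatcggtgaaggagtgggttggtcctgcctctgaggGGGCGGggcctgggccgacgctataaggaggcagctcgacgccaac
Cdk4: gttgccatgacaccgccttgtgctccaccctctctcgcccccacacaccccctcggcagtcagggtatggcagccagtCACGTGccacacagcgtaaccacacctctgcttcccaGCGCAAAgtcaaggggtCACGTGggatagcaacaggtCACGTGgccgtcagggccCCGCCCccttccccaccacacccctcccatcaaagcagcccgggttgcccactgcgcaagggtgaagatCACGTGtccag

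No p53 motif was among the 8, so the windows were not searched for one. The upstream Cdkn1a window had none of the 8 motifs. The downstream one had 2 GC boxes, which 32.7% of the 32851 windows in the table hold at least once. The Cdk4 window had 4 copies of the E-box, beginning 172, 118, 98 and 11 bases before the start, along with 1 GC box and 1 E2F motif. The E-box was found in 6.02% of all windows and the E2F motif in 5.19%, and among the other windows of these genes the E-box was found in that of Cdk6 alone, in 1 copy. The window of Cdkn2d, the other gene called higher, is not shown and held 3 GC boxes and 1 CCAAT box. A match is a string of letters and not evidence of binding. The factors that bind such an E-box include Myc, whose transcript rose by 0.81 ± 0.06 (SE, adjusted p = 3.94e-05). Whether Myc acted on Cdk4 in these cells was not tested.

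The transcription factors known to act on these genes were described as a list, of which 29 were tested. There were 14 genes that fell and 5 that rose, the median change being -0.18, and 10 were not called. Of the list 65.5% passed, against 31.1% of all genes tested. Foxo1 (-1.04 ± 0.09, SE, adjusted p = 6.55e-05), whose protein can induce Cdkn1a and Cdkn1b, fell, and so did the Krüppel-like factor Klf6 (-0.82, adjusted p = 1.32e-04), known as an activator of Cdkn1a. Those that rose were the granulocytic factor Cebpa (0.85, adjusted p = 6.41e-05), Myc, Gfi1 (0.38), Mycn (0.32) and Id2 (0.25), the last 3 named after their values were seen. Without control replicate 3 the number that rose was 3. The call on Mycn depended on 4 single arrays, being lost when knockout replicate 1, knockout replicate 2, control replicate 2 or control replicate 3 was dropped, and that on Id2 on knockout replicate 3 and control replicate 3 (lowest change over the alternatives 0.26 and 0.21). Myc is known to repress Cdkn1a and to induce Ccnd2 and Cdk4, of which Ccnd2 fell. Whether any of the listed factors had a part in the changes of Cdkn1a, Ccnd2 and Cdk4 was not tested.

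Among 26 tested p53 targets other than Cdkn1a, the test called 5 lower and 2 higher and left 19 uncalled, and their median change was -0.05. Of these targets 26.9% passed, against 31.1% of all genes tested. Trp53, which encodes p53, had no probe set of its own. Those that fell included Plk2 (-2.16 ± 0.10, SE, adjusted p = 2.91e-06) and Plk3 (-1.44, adjusted p = 3.80e-06), polo-like kinases that also respond to growth factors, and the death receptor Tnfrsf10b (-1.55, adjusted p = 1.36e-05). The other 2 that fell, named after their values were seen, were Fas (-1.01, or -0.42 as the mean of its probe sets) and Mdm2, which encodes the main inhibitor of p53 (-0.37). Gtse1, which is also a mitotic gene, rose by 0.59 (adjusted p = 2.17e-04) and Gadd45a, also named after its value was seen, by 0.35. The number called higher was not stable. It was 4 under the stricter dim filter or without control replicate 1, and 5 after a second quantile normalization or with array weights, while the number called lower was 5 under all 14 alternatives.

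Degradation sets the level of several of these proteins, so the ligase genes that act on them were taken as another list. The test called 5 of the 19 higher and 4 lower, leaving 10 uncalled (median 0.05, 47.4% passing against 31.1% of all genes tested). These counts were 3 and 2 without knockout replicate 1 or without knockout replicate 2, and 2 were lower without control replicate 1 or under the stricter dim filter. Skp2, the F-box protein that directs p27 and p21 to degradation, rose from 4.67 to 5.72, by 1.05 ± 0.07 (SE, 2.07-fold, adjusted p = 1.65e-05). Its partner Cks1b rose by 0.38, and Cdc20, which activates the anaphase-promoting complex, by 0.83 (adjusted p = 1.86e-05). Gsk3b, a kinase that marks cyclin D1 for export and degradation, fell by 0.45 (adjusted p = 4.51e-04), and Fbxo4, an F-box protein reported to act on cyclin D1, by 0.41 (adjusted p = 0.00323). Fbxo4 was faint, at 2.49 in control and 2.08 in the knockout, not far above the dim level of 1.92, and the stricter dim filter left it out. Cks1b and the remaining genes that passed were named after their values were seen, and the calls on those others depended on single arrays. That on Fbxo31 (0.23) was lost without knockout replicate 1 or 2, and that on Fbxw7 (-0.26) without these or control replicate 1. That on Fbxw8 (0.28) was lost without any array but control replicate 2, and that on Dtl (-0.18) without any but control replicate 3, without the dim filter and with arrays centred.

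Among other genes of the cyclin, CDK and Rb pathway, the test called 13 of 30 higher and 0 lower, leaving 17 uncalled, and the median change was 0.19. The share that passed was 43.3%, against 31.1% of all genes tested. The phosphatase Cdc25c, which activates Cdk1 at mitosis, rose by 0.72 ± 0.07 (SE, adjusted p = 1.37e-04), cyclin A2 (Ccna2) by 0.47 (adjusted p = 5.54e-04), the activating factor E2f2 by 0.47 (adjusted p = 6.26e-04) and cyclin E1 (Ccne1) by 0.39 (adjusted p = 0.00117). E2f5 had the lowest change, -0.17 with an adjusted p of 0.0709, Rb1 itself was at -0.17 (adjusted p = 0.0636, and called lower under the stricter dim filter with 0.0489) and Cdk2, the partner of cyclin E, at 0.01 (adjusted p = 0.904, with its sign turned under 3 of 14 alternatives). Rb1 and Cdk2 were named after their values were seen, as were Cdkn2a and Cdkn2b above.

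Genes of replication and mitosis were called higher in 21 of 30 cases and lower in 1, with 8 uncalled (median 0.29). The share that passed was 73.3%, against 31.1% of all genes tested. The mitotic kinases Aurka (0.88), Plk1 (0.81) and Aurkb (0.64) and the kinesin Kif22 (0.88) rose, with adjusted p-values of 6.58e-05, 5.28e-05, 3.01e-04 and 4.54e-05, and the origin recognition gene Orc1 fell by 0.47 (adjusted p = 0.00486). The mean log2 value of the list was 6.33 to 6.45 on the knockout arrays and 6.04 to 6.14 on the control arrays.

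**Figure D4:**
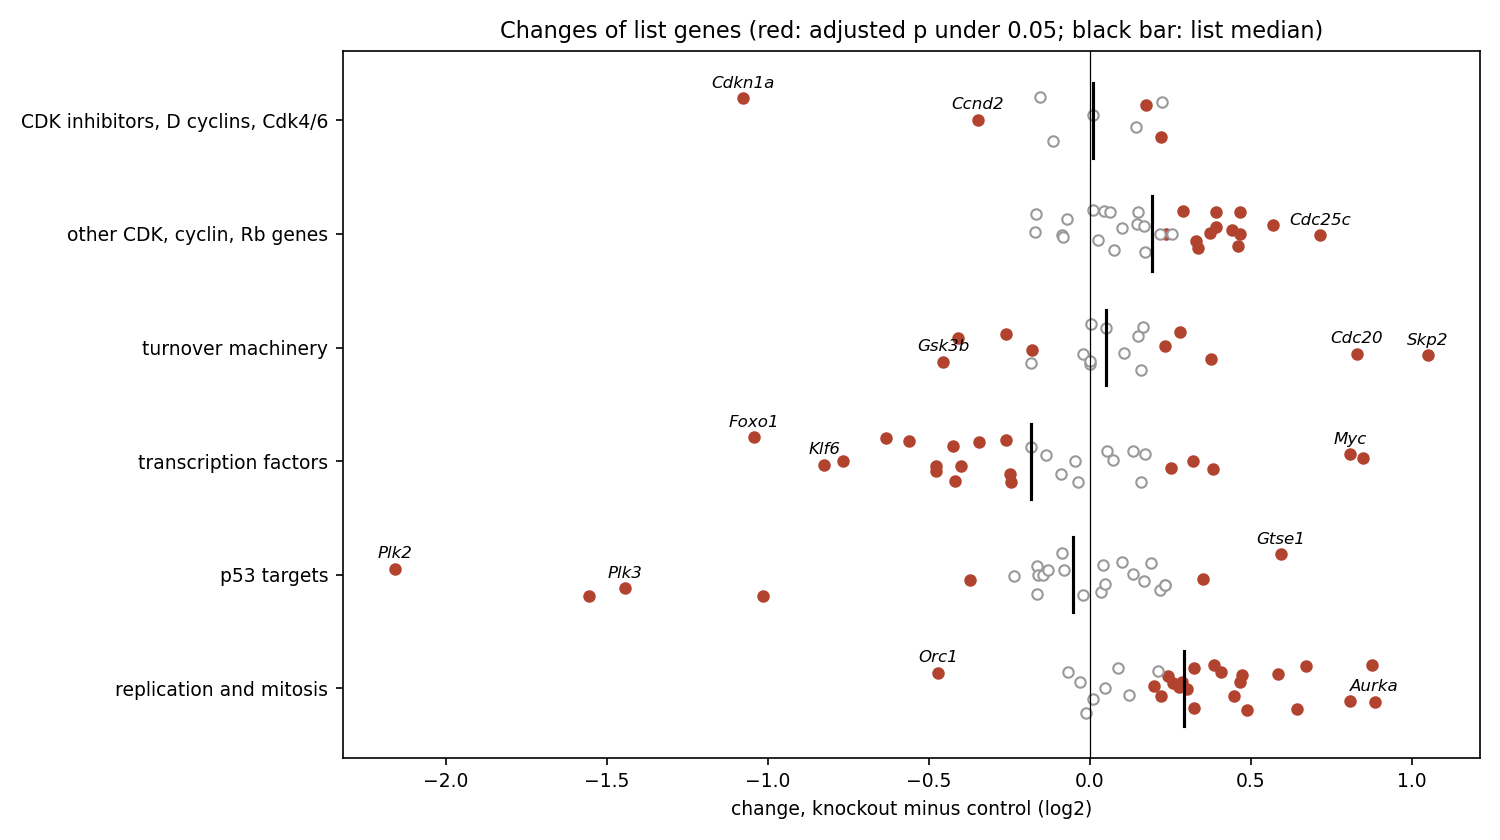
Change of each tested gene (knockout minus control, log2, x axis) in the 6 lists (rows, with vertical jitter), filled red where the adjusted p was under 0.05, with the list median as a black bar. Points of the replication and mitosis list lie mostly to the right (median 0.29) and those of the transcription factor list to the left (median -0.18), while the D cyclins, their kinases and inhibitors spread around 0.01.

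Several markers of cell types within and beyond the LSK gate differed between the groups. The sorted fraction is a mixture, so fewer cells of a type and less RNA per cell cannot be told apart. Kit was bright in all 6 samples (8.15 in the knockout, 8.61 in control) and fell by 0.46 (adjusted p = 7.82e-04), while no probe set is annotated to Ly6a (Sca-1) alone. All 12 myeloid progenitor and neutrophil genes rose (mean log2 value 6.93 to 7.04 on the knockout arrays and 5.31 to 5.50 on the control arrays), and of 11 stem cell genes tested 7 fell and 2 rose (4.14 to 4.23 and 4.50 to 4.58). Over all genes tested, 19.1% were called higher and 12.0% lower. Of the lineage markers that the sort removes, 6 were tested, with 2 higher, 1 lower and 3 not passing, and Ms4a1 was dim. The lower one was Itgam, the brightest of the 6, with a change of -0.43 (adjusted p = 0.00176). Its direction was opposite to that of the 12 myeloid progenitor and neutrophil genes. Both higher ones were faint. Klrb1c was at 1.85 in control, under the dim level of 1.92, and at 2.39 in the knockout. It passed the filter only through the knockout, so nothing is read from its call. Ly6g was at 2.23 in control and 2.61 in the knockout. The part of these shifts in the changes of Cdkn1a, Ccnd2 and Cdk4 was not tested.

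Genes whose values followed a called gene most closely over the 6 arrays were taken from the 910 genes, other than the members and provisional symbols, with a change of at least 0.5 in size. With 3 arrays per group such a correlation mostly reflects the group difference, and 135 of the 910 had an r over 0.99 with Cdkn1a. The closest to Cdkn1a were the apoptosis inhibitor Birc2 (change -0.74), the peptide transporter Slc15a2 (-1.57) and the ubiquitin ligase Trim25 (-1.23), with an r of 0.9997, 0.9997 and 0.9995. Those of Ccnd2 were Arnt, the partner of the HIF factors (-0.59, r = 0.999), the sorting nexin Snx18 (-0.76, r = 0.997) and the tetraspanin Cd53 (-0.64, r = 0.997). Cdk4 was followed by the small nucleolar RNA Snora73a (0.98, r = 0.997), the respiratory subunit Cox6b1 (0.52, r = 0.996) and the kinetochore gene Ska1 (0.64, r = 0.996), and Cdkn2d by G2e3 (0.59, r = 0.9898), heparanase (Hpse, 0.90, r = 0.989) and the kinesin Kif18b (0.56, r = 0.988).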

How the data were processed

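The authors deposited 1 table of log2 values, with RMA named in the submitters' processing notes. RMA corrects background, evens out the intensity distributions of the arrays and summarises probes into probe sets, which takes out any shift common to most genes. Base 2 was inferred because values ran from -0.01 to 11.5, and the software version and genome build are not given in the sources used here. Array medians were 1.89 to 1.95, and arrays correlated at 0.995 to 0.997 within groups and 0.987 to 0.991 between them. Precision is limited by having 3 arrays in each group.

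Genes were named through GEO's platform annotation, and older symbols were replaced by matching Entrez IDs to a RefSeq table (GRCm38.p6). Of 65956 probe sets, 31216 had 1 gene, 1534 several and 33206 were not listed. For genes with several probe sets the brightest was used, and genes with a mean under the median of all probe sets (1.92) were left out. The group difference was fitted per gene in limma 3.58.1 under R 4.3.3, with moderated two-sided tests. The procedure was tested on simulated data. The exact permutation test was used for pairs of related genes. The genes and lists were chosen with earlier results of these data known. Named genes were all 10 by name, the 4 of each pathway list with the smallest p, the highest and lowest change of each pathway list, and the 3 genes most correlated with each called gene. Genes named outside this rule are marked as such, Kit and the other markers apart. The alternatives were other filters, probe set means, median centring, a second quantile normalization, trend and robust eBayes, array weights, the replicate number as a block and leaving out each array.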

Additional observations from a re-analysis of the deposited data

How the results depend on the processing

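The calls on Cdkn1a and Ccnd2 held under all 14 alternatives. The number of these genes called higher was 1 in place of 2 without the filter on dim genes, with each array centred on its median and after a second quantile normalization. Leaving out 1 array gave 2 to 4 called genes of the 9, with 0 to 2 higher, and 2332 to 3104 genes higher among all tested against 3649 with all arrays. That lowest number came without knockout replicate 3. The cause was not tested, beyond fewer arrays giving fewer calls. Ccnd3 was at -0.00264 with each array centred and between -0.0289 (without control replicate 3) and 0.0311 over the fits without 1 array. The shift of Cdkn2c minus Cdkn2d was -0.0124 to 0.144 over the fits without 1 array, and was below 0 without knockout replicate 3. The pathway lists were counted without the dim filter and with centring as planned, and under the other settings after the data were seen. The p53 targets called higher, 2 at first, were 4 under the stricter dim filter, 5 after a second quantile normalization or with array weights, 6 with the replicate number as a block and 2 to 4 with 1 array left out. The stricter filter also gave 1 lower gene in place of 0 in the cyclin, CDK and Rb list and 2 in place of 4 in the turnover list. With 1 array left out, the turnover list had 3 to 5 higher and 2 to 4 lower, and the transcription factors 3 to 5 higher. Deviations of same-numbered samples from their group means correlated at 0.219, 0.333 and 0.0999 for replicates 1, 2 and 3, the last just under the 0.1 taken as pairing, and knockout replicate 3 correlated more with control replicate 1 (0.129), so the numbers were not taken as pairs. With the replicate number as a block, 7211 genes passed in place of 5944, and the same 4 of the 9 genes passed, with adjusted p-values of 2.42e-05 for Cdkn1a and 0.00301 for Ccnd2.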
